A study of Homo sapiens with 6 samples.

Results

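The peaks described here are the regions called for 82-kDa ChAT or for SATB1 that touch an exon of a protein-coding gene away from its start. A peak of any of the 4 deposited peak lists was a member when it lay on chromosomes 1 to 22 or X, shared at least 1 nt with an exon, coding or untranslated, of a protein-coding transcript of a protein-coding GENCODE gene (hg38), and lay more than 1000 nt from the 5′ end of that gene. There were 510 such peaks among 21943 peaks on these chromosomes and 23953 peaks in all. They are called exonic peaks, and a peak counted as coding when any of its bases was coding, otherwise as 3′ untranslated, and otherwise as 5′ untranslated. Base positions, exons and distances were the only things used to choose them, so scores and overlaps between lists are separate measures. Sequence content is not fully separate, because exon position and base composition go together.

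All cells were SH-SY5Y, a human neuroblastoma line, carrying a stable transgene for 82-kDa ChAT, whose promoter and clones are not given in the sources used here. Retinoic acid was used for 3 days to differentiate them, and 3 plates went into each treatment. They were given vehicle (Ham's F-12 medium) or 100 nM amyloid-β1–42 oligomers for 4 h, and cross-linked chromatin was precipitated with an antibody made in the authors' laboratory against the C-terminus of ChAT or with an antibody to SATB1. The paper states that a shorter ChAT form, which also enters the nucleus, lacks only the N-terminal extension of the 82-kDa form. An antibody to the C-terminus is therefore not specific to the 82-kDa form. Each protein and treatment had 1 library, so no value has a replicate error and no p-value was computed. The lists hold no expression values, so the labelled cell type could not be checked against marker genes, and the input samples were not analysed here. For 82-kDa ChAT there were 7044 peaks after vehicle and 6290 after amyloid-β on chromosomes 1 to 22 and X, and for SATB1 there were 2792 and 5817. The study's methods give 1 range of read numbers for all samples and the lists give none, so the number of peaks cannot be set against the depth of each library. Intervals are exact 95% Clopper-Pearson intervals for a share and Newcombe intervals for a difference of shares, and both describe counting error among the peaks of a single library, not variation between experiments.

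82-kDa ChAT is the nuclear form of choline acetyltransferase, the enzyme that makes acetylcholine in cholinergic neurons. SATB1 is a chromatin organizer that holds AT-rich DNA at matrix attachment regions, where chromatin loops meet the nuclear scaffold. Coding exons are under protein-level constraint and rich in G and C, whereas 3′ untranslated exons are long, richer in A and T, and often carry Alu elements, short retrotransposed repeats with very many copies in the genome.

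The loci at which exonic peaks of different lists overlapped are the ones whose sequence is shown. The first set gives 30 nt at the middle of the overlap, or at the exon edge inside it, on the strand of the gene and on hg38, with coding bases in capitals. C2orf16 is shown because both vehicle lists met inside its coding exon, GATM because the peaks after amyloid-β did so, and TLN2, EGLN1 and HMCN1 because their overlaps ran across the border of exon and intron. ABCC10 is shown as the locus that 3 lists shared.
C2orf16: GTCCCTCTGAGAGAAGCCATCACAGTCCCT
TLN2: CTCCTGTTGGAGCGGgtaagtgtcaccaga
GATM: TTGATGCTGCTGACTTCATTCGAGCTGGAA
EGLN1: taaattttcttttagGTACGCAATAACTGT
HMCN1: ATCTATGGCACTGTTgtaagtcacgccaga
ABCC10: aactactggcacttaGAGGAGGGCATAGCC
These stretches are chr2:27581779-27581808, chr15:62836104-62836133, chr15:45366397-45366426, chr1:231367622-231367651, chr1:186130683-186130712 and chr6:43447978-43448007, with GATM and EGLN1 on the minus strand and the others on the plus strand.

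The next set comes from 3′ untranslated exons at which 82-kDa ChAT and SATB1 peaks of vehicle cells overlapped. Capitals mark a match to the pattern of 3 A or T, a C and 3 A or T, which was searched because SATB1 is known for binding AT-rich DNA.
ZNF383: gaatttaggaaaAAACAATtctgataaatc
ZNF587: tgttatactttaTAACTTTataacagcatg
CDK13: tcaacagtgttaAATCATActttcagtgtg
They lie at chr19:37248435-37248464, chr19:57864071-57864100 and chr7:40097952-40097981, all on the plus strand. The shared stretch held 22.6% G and C in ZNF383, 20.3% in ZNF587 and 41.7% in CDK13. In the coding set it ranged from 36.2% in EGLN1 to 58.6% in ABCC10.

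Exons held a small share of the peaks in every list. For 82-kDa ChAT, 180 of 7044 peaks were exonic after vehicle (2.56%, 95% interval 2.20 to 2.95) and 197 of 6290 after amyloid-β (3.13%, 2.72 to 3.59). For SATB1, 62 of 2792 were exonic after vehicle (2.22%, 1.71 to 2.84) and 71 of 5817 after amyloid-β (1.22%, 0.954 to 1.54). To set these against the genome, every position on the same chromosome without undetermined bases was taken in turn for a region of each peak's length, and the share of positions that met the rule was counted. That share was 3.98% and 3.56% for the peak lengths of the 82-kDa ChAT lists and 3.68% and 3.92% for those of SATB1. The number of exonic peaks was therefore 0.642 times (vehicle) and 0.879 times (amyloid-β) the number given by positions for 82-kDa ChAT, and 0.603 and 0.311 times for SATB1. In the list for 82-kDa ChAT after amyloid-β the interval of the share included the share of positions, and in the other 3 lists it lay below.

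**Figure D1:**
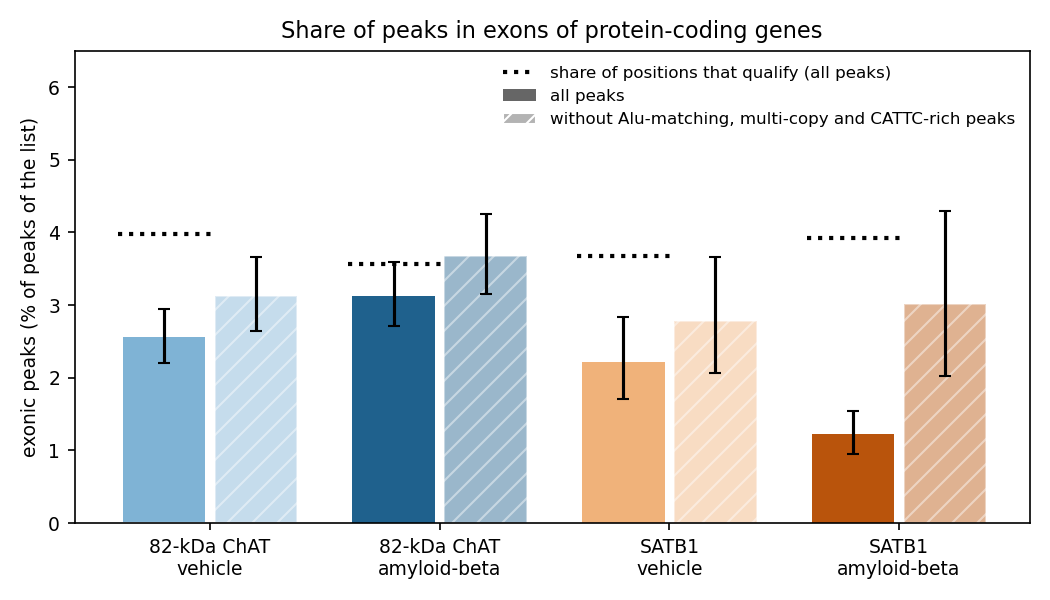
Share of the peaks of each list that were exonic (percent, solid bars, with exact 95% intervals over peaks), the same without Alu-matching, multi-copy and CATTC-rich peaks (hatched bars), and the share of genome positions that met the rule (dotted lines). The solid bar of SATB1 after amyloid-β is lowest at 1.22%, and its hatched bar stands at 3.01%, between the other hatched bars at 2.79% and 3.67%.

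Between treatments the exonic share of 82-kDa ChAT peaks was 0.577 percentage points higher after amyloid-β (interval of the difference 0.0124 to 1.15). For SATB1 the difference was −1.0001 percentage points (interval −1.67 to −0.422), a lower share after amyloid-β. Both values depended on which peaks were kept. Without peaks rich in the pentamer CATTC (at least 3 per 100 nt), the difference for 82-kDa ChAT was 0.373 points (interval −0.237 to 0.988), and in the upper-scoring part of each list (from its median score up) it was −0.141 (−0.908 to 0.637). Without Alu-matching peaks it was 0.693 (0.0841 to 1.32), and without multi-copy peaks 0.636 (0.00454 to 1.27). The interval included 0 when the midpoint or at least 50% of the peak had to lie in exons, or when only MANE Select transcripts, the reference transcript of each gene, were used. Without Alu-matching peaks the difference for SATB1 was −0.151 points (−1.06 to 0.878), and without Alu-matching, multi-copy and CATTC-rich peaks together, a setting chosen after the data were seen, it was 0.224 (−1.04 to 1.67), and for 82-kDa ChAT it was 0.548 (−0.181 to 1.28). For SATB1 without multi-copy peaks alone the difference was −0.839 (−1.75 to 0.0110). A multi-copy peak is one with more than 50% of its 51-nt stretches found more than once in the genome.

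Coding sequence, for which 1 base was enough, made up over 50% of the exonic peaks in 3 of the 4 lists. It was touched by 104 of the 180 exonic peaks of 82-kDa ChAT after vehicle (57.8%, 50.2 to 65.1), 109 of 197 after amyloid-β (55.3%, 48.1 to 62.4), 33 of 62 SATB1 peaks after vehicle (53.2%, 40.1 to 66.0) and 19 of 71 after amyloid-β (26.8%, 16.9 to 38.6). The 3′ untranslated peaks numbered 66, 77, 28 and 43 in the same order, and the 5′ untranslated peaks 10, 11, 1 and 9. By positions, coding sequence would make up 59.7%, 55.8%, 57.9% and 57.4% of exonic regions of these lengths. The SATB1 list after amyloid-β thus stood apart, with 0.145 times the coding peaks and 0.514 times the 3′ untranslated peaks that positions give. When the peak midpoint had to lie in an exon, the coding shares were 48.2%, 46.3%, 42.9% and 18.3% in the order above.

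**Figure D2:**
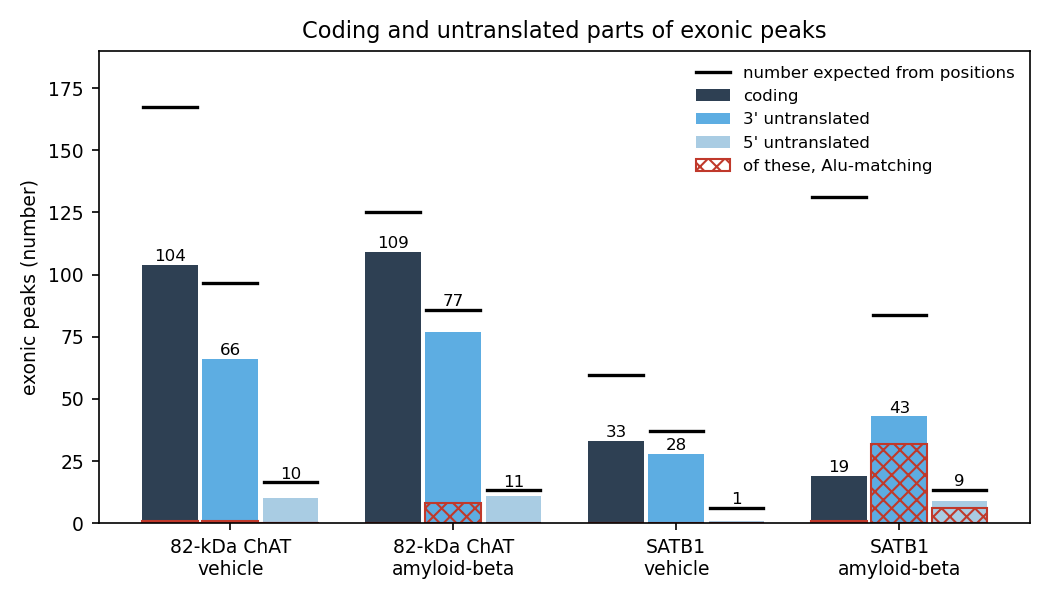
Number of exonic peaks in coding, 3′ untranslated and 5′ untranslated sequence in each list (bars), those that match Alu (red hatching) and the number given by positions (black lines). The 3′ untranslated bar of SATB1 after amyloid-β holds 43 peaks, 32 of them Alu-matching.

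The coding share of exonic SATB1 peaks was 26.5 percentage points lower after amyloid-β than after vehicle (difference −26.5, interval −41.3 to −9.81), and the 5′ untranslated share was 11.1 points higher (1.95 to 20.8). As a share of all SATB1 peaks, 5′ untranslated peaks differed by 0.119 points, with an interval that included 0 (−0.0633 to 0.261), and coding peaks by −0.855 (−1.34 to −0.470). With MANE Select transcripts only, the 5′ untranslated shares of exonic SATB1 peaks were 0% and 1.92%. For 82-kDa ChAT the coding share differed by −2.45 points, with an interval of −12.3 to 7.51. Alu matches moved with the SATB1 value. The Alu copy used for matching was taken at the SATB1 peak in APP after amyloid-β, a member of that list outside exons. Among the exonic SATB1 peaks 0 of 62 matched Alu after vehicle (interval 0 to 5.78%), and 39 of 71 did after amyloid-β (54.9%, 42.7 to 66.8). Of the other SATB1 peaks, 161 of 2730 (5.90%) matched Alu after vehicle and 4327 of 5746 (75.3%) after amyloid-β. The higher share after amyloid-β was thus not particular to exonic peaks. Of those 39 peaks, 32 lay in 3′ untranslated sequence, 6 in 5′ untranslated sequence and 1 in coding sequence. Left without Alu-matching peaks, the list held 32 exonic peaks, of which 18 were coding (56.3%, 37.7 to 73.6). Whether repeat-derived reads had a part in the treatment differences was not tested.

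In every list, exonic peaks matched Alu less often than the other peaks. Among SATB1 peaks outside exons after amyloid-β, 75.3% matched Alu, which is 20.4 points more than among exonic peaks (difference −20.4, interval −32.0 to −9.29). In the 3′ untranslated exons 16 of the 32 Alu copies ran in the direction of the gene and 16 against it, and 27 of the 32 lay in the MANE Select transcript. The 6 copies in 5′ untranslated exons and the 1 in a coding exon lay outside MANE Select transcripts. Examples in 3′ untranslated exons were CHST12 (score 84.31), a carbohydrate sulfotransferase, SV2B (60.87), a synaptic vesicle glycoprotein, and SPPL2A (56.56), an intramembrane protease. The peaks in CHST12, SV2B and SPPL2A had 100% multi-copy 51-nt stretches. For SATB1 after vehicle the difference between exonic and other peaks was −5.90 points (−6.84 to −0.00523). Among exonic 82-kDa ChAT peaks, 2 of 180 matched Alu after vehicle (1.11%), against 6.18% of other peaks (difference −5.07, −6.07 to −2.17). After amyloid-β 8 of 197 did (4.06%), against 11.4% (−7.35, −9.50 to −3.52). All 8 were 3′ untranslated, 7 of them in the direction of the gene.

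Exonic peaks differed from the other peaks of their lists in base composition. The median share of G and C was 47.5% in exonic and 41.2% in other 82-kDa ChAT peaks after vehicle, 48.4% and 41.3% after amyloid-β, 43.98% and 40.3% in SATB1 peaks after vehicle, and 52.8% and 51.9% after amyloid-β. Coding bases as a whole held 51.5% G and C and 3′ untranslated bases 42.4%. Coding peaks had medians of 49.1%, 51.6%, 47.9% and 49.2% in the 4 lists, and 3′ untranslated peaks 39.98%, 41.7%, 40.7% and 52.8%. The last of these, SATB1 after amyloid-β, is the group in which 32 of 43 peaks matched Alu.

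**Figure D3:**
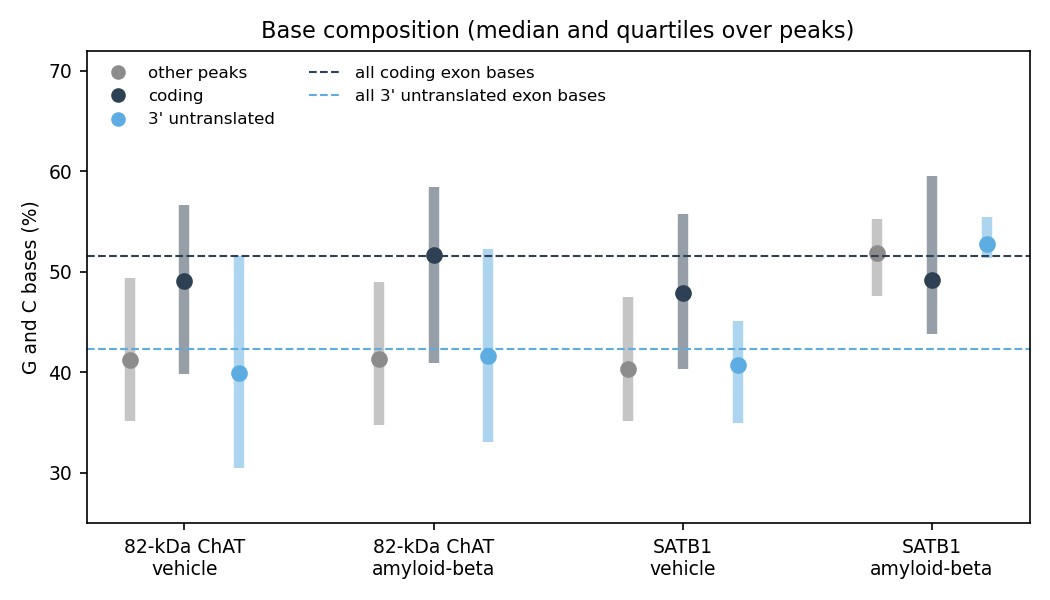
Share of G and C bases (percent) in coding and 3′ untranslated peaks and in all other peaks of each list, as median (point) and quartiles (bar) over peaks, with the shares over all coding and all 3′ untranslated exon bases as dashed lines. The 3′ untranslated medians lie at 39.98% to 41.7% in 3 lists and at 52.8% for SATB1 after amyloid-β.

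Repeats rich in CATTC, the unit of a human satellite repeat, were found in 1 exonic peak. In the vehicle list of 82-kDa ChAT 1 of 180 exonic peaks was rich in CATTC, against 821 of 6864 other peaks, a difference of −11.4 percentage points (−12.3 to −8.77). After amyloid-β the numbers were 0 of 197 and 229 of 6093 (difference −3.76, −4.27 to −1.79). The SATB1 lists had 0 exonic peaks of this kind against 4.58% and 1.32% of other peaks, and the intervals of these differences included 0 (−5.43 to 1.30 and −1.65 to 3.82). How often exons as a whole are rich in CATTC is not given here, so the differences cannot be told apart from a property of exons.

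The pattern of 3 A or T, a C and 3 A or T, searched on both strands with overlapping matches counted, was less frequent in exonic than in other peaks of every list. For 82-kDa ChAT it was present in 48.9% and 67.6% after vehicle (difference −18.7, −26.0 to −11.4) and in 46.7% and 65.1% after amyloid-β (−18.4, −25.3 to −11.3). For SATB1 it was present in 58.1% and 71.4% after vehicle (−13.3, −25.8 to −1.74) and in 59.2% and 70.1% after amyloid-β (−10.9, −22.6 to −0.168). Exons cut into consecutive windows of the median peak length held it in 56.4% to 62.5% of windows. By part, it was found in 42.3% of coding and 60.6% of 3′ untranslated peaks of 82-kDa ChAT after vehicle, and in 42.4% and 78.6% (22 of 28) of those of SATB1 after vehicle. After amyloid-β these shares were 38.5% and 59.7% for 82-kDa ChAT and 31.6% and 69.8% for SATB1. The windows were not split by part, and 3′ untranslated exons are richer in A and T than coding exons. The shares by part therefore have no like background here. The motif TCCAT or TCCCAT was found in 30.6% and 28.4% of exonic 82-kDa ChAT peaks and in 37.1% and 19.7% of exonic SATB1 peaks after vehicle and amyloid-β, and in 27.5% to 32.7% of exon windows.

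Length differed little between exonic and other peaks. The median length of exonic peaks was 137.5 nt and 111 nt for 82-kDa ChAT and 128.5 nt and 133 nt for SATB1, against 136, 110, 129 and 134 nt in the other peaks. Scores come from the peak caller MACS (−log10 of the p-value, multiplied by 10), start at 50, and rank peaks within a list only. Median scores of exonic and other peaks were 67.3 and 65.4 for 82-kDa ChAT after vehicle, 61.9 and 63.6 after amyloid-β, 67.3 and 65.9 for SATB1 after vehicle, and 65.9 and 66.4 after amyloid-β. From the median score of the list upward lay 95 of 180 (52.8%), 80 of 197 (40.6%), 37 of 62 (59.7%) and 31 of 71 (43.7%) exonic peaks. In that upper part of the 82-kDa ChAT list after amyloid-β 2.54% of peaks were exonic, against 3.13% in the whole list. The highest exonic score was 179.31, whereas the highest scores of the 4 lists lay between 349.67 and 3195.17.

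Within transcripts, most exonic peaks lay in internal or last exons. The limit of 1000 nt from the 5′ end of the gene keeps out peaks in many first exons, so few of these could appear. On the MANE Select transcript, 195 of the 510 peaks lay mainly in an internal exon, 231 in the last exon, 2 in the first and 5 in a single exon, while 68 lay in an exon of another transcript only and 9 in genes without such a transcript. Over all MANE Select transcripts, internal exons hold 35.4% and last exons 55.0% of exon bases. These are shares of bases without the distance limit, so they are not like for like with the counts of peaks. Of the 265 coding peaks 188 lay in internal exons, and of the 214 peaks in 3′ untranslated sequence 175 lay in last exons. The MANE Select exon under a coding peak had a median length of 185 nt, and that under a 3′ untranslated peak 3429 nt. Exon borders were often inside coding peaks. Wholly within exons lay 96 of 265 coding peaks and 206 of 214 peaks in 3′ untranslated sequence, and 14 coding peaks touched at most 5 coding bases. By list, 66.1% and 54.8% of exonic 82-kDa ChAT peaks after vehicle and amyloid-β lay wholly within exons, against 47.2% and 56.3% of positions, and 59.7% and 74.6% of exonic SATB1 peaks, against 50.4% and 51.8%.

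The members nearest to the distance limit show what it separated. Just inside the limit and so left out was the coding peak in TSSK1B (994 nt from the 5′ end, 82-kDa ChAT after amyloid-β). Just beyond it and so included was the peak in a 5′ untranslated exon of TMEM138 (1007 nt, SATB1 after amyloid-β).

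Most genes with an exonic peak had 1 peak in 1 list. Of 19167 protein-coding genes with exon bases under the rule, 483 had an exonic peak, 450 of them in 1 list, 32 in 2 lists and 1, ABCC10, in 3. By list the genes numbered 179 (0.934% of all) and 204 (1.06%) for 82-kDa ChAT after vehicle and amyloid-β, and 62 (0.323%) and 72 (0.376%) for SATB1. Genes with 3 exonic peaks were ABCC10, DUSP22, GEMIN4, ZDHHC11B and MLYCD. MLYCD, the malonyl-CoA decarboxylase of fatty acid metabolism, held its 3 peaks in the last exon, all for 82-kDa ChAT after vehicle (scores 52.04, 53.76 and 79.68). DUSP22, a phosphatase, held 2 peaks at 5′ untranslated exons outside its MANE Select transcript for 82-kDa ChAT (53.76 and 106.18, with 189 and 20 exon bases) and 1 coding peak at exon 6 of 7 for SATB1 (60.95, with 30), all after vehicle.

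Of the highest-scoring exonic peaks of each list and part, most overlapped no peak of another list. Those in C2orf16, DYNC1H1, GEMIN4, HMCN1, EGLN1, NARF and CEP41 did overlap one, and the shares over all exonic peaks are given below. For 82-kDa ChAT after vehicle the highest was in the last exon of KICS2 (179.31, chr12:64192036-64192153), a subunit of a complex that restrains mTORC1 signalling, and it was wholly 3′ untranslated with 29.7% G and C. The highest coding peaks of that list were in ZNF302 (130.74, with 7 of 58 nt coding and 87.5% multi-copy stretches), in C2orf16 (112.99) and in HACD2 (112.90, with 21 of 84 nt coding), an enzyme of very long chain fatty acid synthesis. GNGT2, a G protein subunit of cone photoreceptors, had the highest peak in 5′ untranslated sequence (130.74, with 34 of 72 nt in the exon).

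After amyloid-β the highest exonic 82-kDa ChAT peak was in HMCN1 (150.83, chr1:186130681-186130734), an extracellular matrix protein, where 17 of 54 nt were in exon 85 of 107. USP31, a deubiquitinase, followed with 111.93 (16 of 119 nt coding), then FAM153A with 111.08 (25 of 122 nt coding). The highest coding scores of this list thus came from peaks that lay mostly in introns or other non-exonic sequence. In 3′ untranslated sequence the highest were PTGS2 (118.57), the inducible cyclooxygenase of prostaglandin synthesis, and KLK10 (114.34), a kallikrein peptidase. CDK17 had the highest peak in 5′ untranslated sequence (79.39), in an exon that is not in its MANE Select transcript.

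SATB1 after vehicle had its highest exonic peak in the last exon of TIMELESS (115.69), a replication fork protein. Its highest coding peaks were in DYNC1H1 (98.44), TDRD10 (85.97) and C2orf16 (78.02). After amyloid-β the highest SATB1 peak was in COPS7B (125.84), a subunit of the COP9 signalosome, but only 27 of its 210 nt were in an exon, and it matched Alu with all 51-nt stretches multi-copy. FAM90A8 (87.89, all stretches multi-copy) and EGLN1 (73.70) followed among coding peaks, and NARF (115.45) and CEP41 (115.33) led in 3′ untranslated sequence. ANAPC16, a subunit of the anaphase-promoting complex, had the highest peak in 5′ untranslated sequence (81.42), which matched Alu.

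At 27 exonic loci peaks of different lists overlapped or, in ZNF778, lay within 200 nt of each other. At 18 of them the lists were 82-kDa ChAT and SATB1 after vehicle, at 5 they were 82-kDa ChAT and SATB1 after amyloid-β, at 2 they were 82-kDa ChAT after both treatments, at 1 they were 82-kDa ChAT after amyloid-β and SATB1 after vehicle, and at 1, ABCC10, they were 82-kDa ChAT after both treatments and SATB1 after amyloid-β. No exonic SATB1 peak overlapped a SATB1 peak of the other treatment, with intervals of 0 to 5.78% for the 62 vehicle peaks and 0 to 5.06% for the 71 amyloid-β peaks. Over all SATB1 peaks such overlaps were also few, with 45 of 2792 vehicle peaks (1.61%) and 42 of 5817 amyloid-β peaks (0.722%), and both intervals include these shares. In vehicle cells 16 of 180 exonic 82-kDa ChAT peaks overlapped a SATB1 peak and 3 of 180 an 82-kDa ChAT peak of the other treatment. Over all peaks of that list the numbers were 643 and 353 of 7044. After amyloid-β 6 of 197 exonic 82-kDa ChAT peaks overlapped a SATB1 peak and 3 an 82-kDa ChAT peak of vehicle cells, while over all 6290 peaks the order was the other way, with 214 and 348.

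The share of exonic peaks that overlapped a peak of any other list was 10.6% for 82-kDa ChAT after vehicle (19 of 180, 6.48 to 15.99), where the share over all peaks of the list was 13.9%. After amyloid-β it was 4.57% (9 of 197, 2.11 to 8.50) and 8.35% over all peaks. For SATB1 it was 27.4% after vehicle (17 of 62, 16.9 to 40.2) and 24% over all peaks, and 8.45% after amyloid-β (6 of 71, 3.16 to 17.5) and 4.88% over all peaks. The intervals of the 4 differences between exonic and other peaks all included 0. Between treatments the share among exonic peaks was 5.99 points lower after amyloid-β for 82-kDa ChAT (difference −5.99, −11.7 to −0.627) and changed for SATB1 in the same direction (−18.97, −32.0 to −6.00). Median scores of overlapping and other exonic peaks were 77.79 and 65.35 for 82-kDa ChAT after vehicle, 61.41 and 62.1 after amyloid-β, 64.53 and 67.66 for SATB1 after vehicle, and 72.77 and 65.37 after amyloid-β. No Alu-matching peak was among the 27 loci, and 5 loci had a multi-copy peak.

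**Figure D4:**
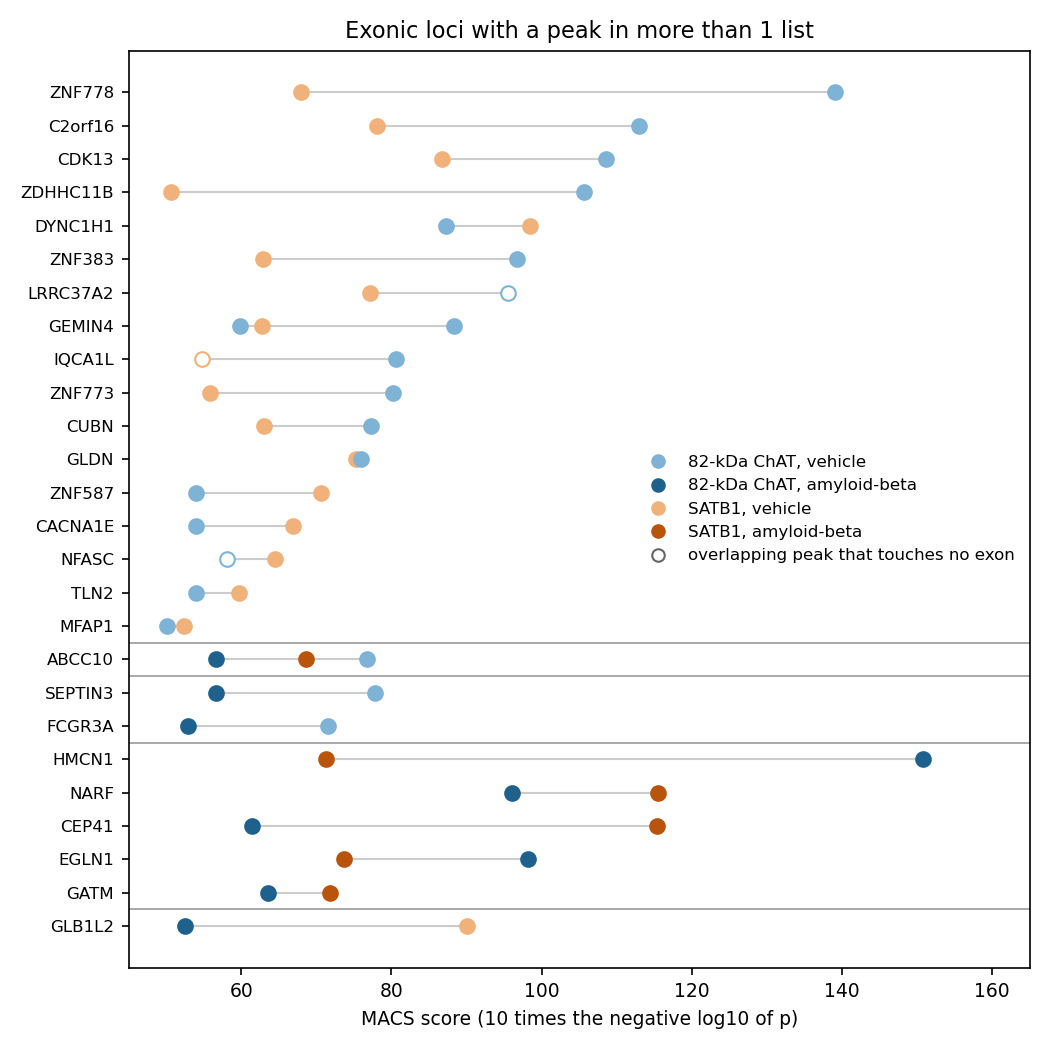
MACS score (linear axis) of the peaks at 26 of the 27 exonic loci with a peak in more than 1 list, 1 row a locus, coloured by list, with open circles for overlapping peaks that touch no exon. Vehicle peaks of 82-kDa ChAT and SATB1 fill the upper 17 rows, and amyloid-β peaks of both proteins the 5 rows from HMCN1 to GATM.

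In vehicle cells 2 shared coding loci had peaks of both proteins wholly inside a coding exon. DYNC1H1, the heavy chain of cytoplasmic dynein, had peaks of 89 nt for 82-kDa ChAT (score 87.33) and 85 nt for SATB1 (98.44), both wholly in coding exon 8 of 78. Their ends coincided at 1 side and differed by 4 nt at the other. C2orf16 had peaks of 162 nt (112.99) and 156 nt (78.02) wholly in its last exon, which is 15988 nt long. Of their 51-nt stretches 2.68% and 2.83% were found more than once in the genome.

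GLDN, gliomedin, which gathers sodium channels at nodes of Ranvier, had overlapping peaks at exon 8 of 10 (76.00 for 82-kDa ChAT and 75.33 for SATB1). TLN2, a talin that links integrins to actin, had peaks of 53.93 and 59.69, of which that of 82-kDa ChAT touched exon 57 of 59 and that of SATB1 an exon of another transcript. At CACNA1E, the pore-forming subunit of a neuronal calcium channel, the peaks (53.93 and 66.88) lay in an exon outside the MANE Select transcript, with 30 and 31 coding bases and the rest 3′ untranslated. At CUBN, the endocytic receptor cubilin (77.27 and 63.00), and MFAP1, a spliceosome protein (50.09 and 52.34), the coding overlap was between 19 and 38 nt a peak, and most of each peak was intronic. In NFASC, LRRC37A2 and IQCA1L only 1 of the overlapping peaks reached the exon.

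Of the shared vehicle loci in untranslated sequence 4 were in C2H2 zinc finger genes, a large family of DNA-binding proteins. ZNF383 (96.78 for 82-kDa ChAT and 62.96 for SATB1), ZNF773 (80.25 and 55.85) and ZNF587 (53.93 and 70.62) lie on chromosome 19 and ZNF778 (139.03 and 67.96) on chromosome 16, and all 4 held the peaks in 3′ untranslated sequence. In ZNF778 the peaks did not overlap but lay within 200 nt of each other, and the 82-kDa ChAT peak there was 64.6% multi-copy. CDK13, a kinase of RNA polymerase II, had peaks of 116 nt in both lists, shifted by 1 nt (108.51 and 86.77). ZDHHC11B, of the palmitoyltransferase family (105.70 and 50.61, beside a further 82-kDa ChAT peak of 69.37), and GEMIN4, a protein of the SMN complex that assembles spliceosomal RNPs, completed the set. GEMIN4 had 82-kDa ChAT peaks of 88.29 and 59.83 and a SATB1 peak of 62.82 in 5′ untranslated exons of another transcript, with 36.3%, 86.9% and 89.95% of stretches multi-copy.

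After amyloid-β 82-kDa ChAT and SATB1 met at 5 exonic loci that had no exonic peak in vehicle cells. In GATM, which makes the precursor of creatine, exon 5 of 9 held peaks of 63.62 and 71.84 with 75 and 113 coding bases. EGLN1, the prolyl hydroxylase that marks hypoxia-inducible factor for degradation, had peaks of 98.18 and 73.70 that began 1 nt apart and ended at the same base, with 36 and 35 nt in exon 4 of 5. HMCN1 had 150.83 and 71.30 with 17 and 16 nt in exon 85. In 3′ untranslated sequence NARF, a binding partner of prelamin A, had 96.02 and 115.45, and CEP41, a centrosomal protein of cilia, had 61.41 and 115.33.

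ABCC10, a transporter of the multidrug resistance family, was the gene with peaks in 3 lists. The 82-kDa ChAT peaks scored 76.74 after vehicle and 56.61 after amyloid-β, with 111 and 88 coding bases, of which 59 and 41 were in exon 18 of 22 and the rest in an exon of another transcript. The SATB1 peak after amyloid-β (68.64) lay inside them at chr6:43447939-43448008, with 16 coding bases in an exon of another transcript. SEPTIN3, a neuronal septin, had 82-kDa ChAT peaks of 77.79 and 56.61 that began at the same base after both treatments, with 1 coding base and the rest in 3′ untranslated sequence of another transcript. FCGR3A, an Fc receptor with a near-identical neighbour gene, had 71.52 and 52.89, and its peaks were 87.2% and 100% multi-copy, so the copy the reads came from is uncertain. The same holds for GLB1L2, where a SATB1 peak of vehicle cells (90.11) and an 82-kDa ChAT peak after amyloid-β (52.57) met in 3′ untranslated sequence with 100% of stretches multi-copy.

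Kinds of genes were compared by 19 lists of genes. Their peaks are set against exon bases, which, unlike the positions used above, make no allowance for peak length. Coding sequence holds 42.8% of exon bases under the rule, but 55.8% to 59.7% of exonic positions. A locus shared by several lists of peaks was counted once for each. Genes for C2H2 zinc finger proteins held 37 of the 510 exonic peaks (7.25%), while they hold 4.36% of exon bases under the rule. Of the 664 genes 17 had an exonic peak for 82-kDa ChAT after vehicle (2.56%, against 0.934% of all genes), 9 after amyloid-β (1.36%, against 1.06%), 7 for SATB1 after vehicle (1.05%, against 0.323%) and 4 after amyloid-β (0.602%, against 0.376%). Their median exon length was 4325.5 nt, against 3202 nt over all genes. By part, 17 of the peaks were coding, 19 were 3′ untranslated and 1 was 5′ untranslated, and 9 were multi-copy. ZNF302 and ZNF778 scored highest for 82-kDa ChAT after vehicle, ZKSCAN1 (93.69) after amyloid-β, ZNF587 (70.62) for SATB1 after vehicle and ZFP82 (90.44, Alu-matching) after amyloid-β.

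Gene families of recent segmental duplication held 21 exonic peaks (4.12%), against 1.47% of exon bases, and 18 of the 21 were multi-copy. They included FAM90A19 (101.81), NBPF10 (91.17) and GOLGA8S (69.90). For the 18 the gene named is 1 of several near-identical copies, and the place of the peak is uncertain. Mucin genes held 4 peaks (0.784%, against 0.230% of exon bases), 2 of them in MUC12 and multi-copy. Keratin genes held 5 (0.980%, against 0.133%), 4 of them for 82-kDa ChAT after amyloid-β, with KRT81 (80.58) highest. Giant muscle and cytoskeletal genes held 10 peaks in 7 genes (1.96%, against 1.22% of exon bases), among them the shared pairs in DYNC1H1 and HMCN1.

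**Figure D5:**
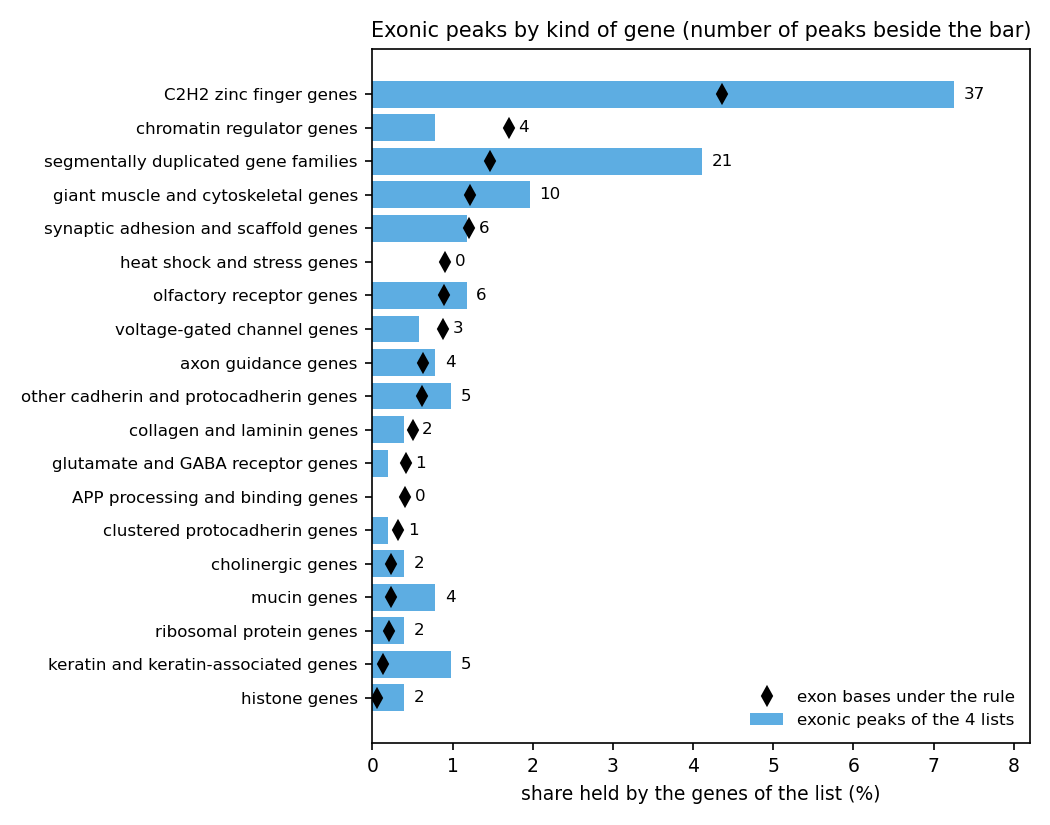
Share of the 510 exonic peaks held by the genes of each list (percent, bars, with the number of peaks beside them) and the share of exon bases they hold (percent, diamonds). C2H2 zinc finger genes hold 37 peaks (7.25%) and 4.36% of exon bases, and 18 of the 21 peaks in segmentally duplicated families are multi-copy.

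Neuronal lists held 1 to 6 exonic peaks each, on both sides of their share of exon bases. Synaptic adhesion and scaffold genes held 6 (1.18%, against 1.20% of exon bases), among them TENM1 (97.30, 82-kDa ChAT after vehicle), a teneurin that joins synaptic partners, DLG2 (59.22, the same list), a postsynaptic scaffold, and IGSF8 (67.26, SATB1 after vehicle), an immunoglobulin-family membrane protein. SV2B had a peak of 82-kDa ChAT (66.95) and a SATB1 peak (60.87, Alu-matching) in its last exon, both after amyloid-β and not overlapping. Axon guidance genes held 4 coding peaks (0.784%, against 0.635% of exon bases), in EPHB4 (73.21), PLXNA4 (62.87) and SEMA3B (52.89) for 82-kDa ChAT after amyloid-β and in SEMA4F (56.65) after vehicle. Of the glutamate and GABA receptor genes, GRIN2B, an NMDA receptor subunit, had 1 peak in 3′ untranslated sequence (96.96, 82-kDa ChAT after amyloid-β), and the list thus held 0.196% of the peaks against 0.416% of exon bases. Voltage-gated channel genes had the CACNA1E pair and an Alu-matching SATB1 peak in TRPM4 (50.55), which is 0.588% against 0.880%.

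Of the cholinergic genes 2 of 45 had an exonic peak (4.44%, against 2.52% of all genes), and the list held 0.392% of the peaks against 0.234% of exon bases. Both peaks were of 82-kDa ChAT, whose lists held 180 and 197 of the 510 exonic peaks. SLC44A1, a choline transporter, had a peak of 50.88 with 4 exon bases after vehicle. None of the 50 genes of APP processing and binding and none of the 176 heat shock and stress genes had an exonic peak, and these lists hold 0.410% and 0.912% of exon bases. CHAT, SATB1, APP, GAB2 and MAGI2 had no exonic peak either, although MAGI2 had 5, 5, 1 and 3 peaks in its gene body in the 4 lists.

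Other lists held between 1 and 6 peaks. Chromatin regulators had 4 coding peaks, in EP400 (67.25, SATB1 after vehicle), SETD1A (63.57) and KAT7 (53.08) for 82-kDa ChAT after vehicle, and NSD1 (59.02) after amyloid-β, which is 0.784% of the exonic peaks against 1.70% of exon bases. Olfactory receptor genes had 6 peaks (1.18%, against 0.892% of exon bases), of which OR2J2 (78.83, coding, 82-kDa ChAT after vehicle) was highest. Cadherin genes outside the clusters had 5 (0.980%, against 0.614%), led by FAT3 (95.58, 82-kDa ChAT after vehicle), and the clustered protocadherins 1 (0.196%, against 0.324%), in PCDHGA2 (51.27, SATB1 after vehicle). Collagen and laminin genes, histone genes and ribosomal protein genes had 2 peaks each (0.392%), against 0.502%, 0.0560% and 0.203% of exon bases. The first were in LAMA4 (75.07, SATB1 after vehicle) and COL7A1 (60.60, 82-kDa ChAT after amyloid-β), those of histone genes in H2BC18 (65.08, multi-copy) and H2AZ2 (53.40) for 82-kDa ChAT after vehicle, and those of ribosomal protein genes in RPL7L1 (63.05, Alu-matching) and RPL37A (53.92) for 82-kDa ChAT after amyloid-β.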

How the data were processed

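Chromatin immunoprecipitation sequencing was analysed for 4 libraries, 1 for each protein and treatment. The paper states that reads were aligned to hg38 with BWA and repeat-masking, without saying how the masking was done. Peak calling was by MACS (p-value limit 1e-05), and regions that the input samples also gave were discarded by the authors. Tool versions are not given in the sources used here. The deposited score is −log10 of that p-value, multiplied by 10. The study's methods give a common range of read numbers but no depth for each library, which limits every comparison of peak numbers between lists. Mapping with repeat-masking, and reads that fit many copies, could change which repeats appear as peaks. Alu-matching and multi-copy peaks were nevertheless present in the deposited lists, as given above, and the effect of the masking was not tested.

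Exons came from GENCODE 44 (88858 protein-coding transcripts). Python 3.11.15, samtools 1.23.1, blastn 2.17.0, numba 0.67.0, scipy 1.17.1, numpy 2.4.6, pysam 0.24.0 and pandas 2.3.3 were used. Alu was matched by blastn at an e-value of 1e-05 against a 287 nt copy. That copy was the SATB1 peak in APP after amyloid-β with the bases next to it, so it came from a list under comparison. Intervals are at 95%. Genes were named if their exonic peak overlapped or lay within 200 nt of a peak of another list, if they were the 3 highest-scoring coding, 2 highest 3′ and 1 highest 5′ untranslated peaks of a list, if they had peaks in 3 lists or 3 peaks, or if they belonged to 1 of 19 gene lists. The peaks, the gene lists and the rules were chosen with earlier results of these data known. Functions were checked on simulated data, and 15 of 15 checks passed. Alternatives covered the score, the contact with the exon, transcripts, distance, repeats and overlap. Some loci are not reported here.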

Additional observations from a re-analysis of the deposited data

Results flagged for a closer look

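The change with amyloid-β went in opposite directions for the 2 proteins in a pair of measures, each resting on 1 library a group. The exonic share of peaks was 0.577 percentage points higher for 82-kDa ChAT and changed by −1.0001 points for SATB1. The share of exonic peaks that were multi-copy changed by −7.94 points for 82-kDa ChAT (15.6% to 7.61%) and by 22.7 points for SATB1 (21.0% to 43.7%). The peaks outside exons moved in the same directions, from 19.3% to 12.7% for 82-kDa ChAT and from 30.3% to 59.0% for SATB1. The difference between the proteins itself was not tested, and library and group cannot be told apart.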

How the results depend on the processing

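No paired analysis was possible because each group had 1 library. Of 288 values recomputed under other settings, 231 stayed within the interval or threshold of the reported value. All 40 medians of length and G and C content moved by less than 1 SD over peaks. The depth of each library is not given, so its effect could not be measured, and the causes of the changes given next were not tested.

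With peaks from the median score of each list upward, the genes with an exonic peak numbered 98, 82, 37 and 32 (82-kDa ChAT after vehicle and amyloid-β, then SATB1 in the same order), by construction from fewer peaks. There the exonic share of 82-kDa ChAT after amyloid-β was 2.54%, with 47.5% coding and 48.75% 3′ untranslated, the 5′ untranslated share of SATB1 after vehicle was 0%, overlap with another list was 5.26% for 82-kDa ChAT and 13.5% for SATB1 after vehicle, and the treatment difference for 82-kDa ChAT reversed to −0.141 points. With the peak midpoint in an exon, 82-kDa ChAT had exonic shares of 2.002% and 2.37%, coding shares of 48.2% and 46.3% and 3′ untranslated shares of 46.8% and 51.01% after vehicle and amyloid-β, a 5′ untranslated share of 2.68% after amyloid-β, and a difference of 0.367 points with an interval that included 0. With at least 50% of the peak in exons the vehicle values were 2.03%, 49.0% and 46.2%, those after amyloid-β were 2.37%, 46.3%, 51.01% and 2.68%, and the difference was 0.339 points, again not clear of 0.

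With MANE Select transcripts only, the 5′ untranslated shares were 2.58%, 1.75%, 0% and 1.92%, the exonic share of SATB1 after amyloid-β was 0.894%, and the 82-kDa ChAT difference was 0.518 points, not clear of 0. With distance taken from every transcript start, the 5′ untranslated shares were 1.22% for 82-kDa ChAT after vehicle, 0% for SATB1 after vehicle and 5.08% for SATB1 after amyloid-β.

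Without multi-copy peaks, SATB1 had a 5′ untranslated share of 0% after vehicle, and after amyloid-β an exonic share of 1.67% and 41 genes, with a treatment difference of −0.839 points, not clear of 0. Without Alu-matching peaks, SATB1 after amyloid-β had an exonic share of 2.21%, coding 56.25%, 3′ untranslated 34.4%, overlap 18.75% and 33 genes, with a difference of −0.151 points, not clear of 0. Without CATTC-rich peaks the 82-kDa ChAT difference was 0.373 points, not clear of 0. Without all 3 kinds, a setting chosen after seeing the data, the exonic shares were 3.13% and 3.67% for 82-kDa ChAT and 3.01% for SATB1 after amyloid-β, where coding made up 51.7%, 3′ untranslated 37.9%, overlap 20.7% and the genes numbered 30. The 5′ untranslated share of SATB1 after vehicle was 0%, the 82-kDa ChAT difference 0.548 points, not clear of 0, and the SATB1 difference reversed to 0.224 points. Over all settings the difference ranged from −0.141 to 0.693 points for 82-kDa ChAT and from −1.58 to 0.224 for SATB1.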

Other observations

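By chromosome, the exonic peaks of 82-kDa ChAT after vehicle were most numerous on chromosome 19, with 20 of 180 (11.1%, interval 6.92 to 16.6), where 2.34% of all peaks of that list and 5.71% of exon bases lie. Those of 82-kDa ChAT after amyloid-β included 22 of 197 on chromosome 7 (11.2%, 7.13 to 16.4), beside 8.36% of all peaks and 4.69% of exon bases. On chromosome 7 the vehicle list had 9 of 180 (5.00%, 2.31 to 9.28) and 8.19% of all peaks. These chromosomes were chosen after their values were seen. The vehicle peaks of 82-kDa ChAT on chromosome 19 include peaks of the C2H2 zinc finger genes counted above, among them ZNF302, ZNF383 and ZNF773. The counts for this chromosome and for those genes are therefore not separate observations.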
